A study of Mus musculus with 10 samples.

Results

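The 10 genes described here encode regulators of the BCL-2 family: Bcl2, Bcl2l1, Mcl1, Bax, Bak1, Bid, Bad, Bbc3, Pmaip1 and Bcl2l11. They were found by gene symbol among the 18603 genes of the count table, 1 row each. The choice was by name, with earlier results of these data known. All 10 passed the filter on low counts, with 194 to 15597 reads per gene and tumour, and were tested among 15883 genes. The tumours were grown from RENCA, a mouse kidney cancer cell line, placed under the skin of female Balb/c mice whose age is not given in the sources used here. The 5 SLR14 tumours had been injected with lipid nanoparticles carrying SLR14, a hairpin RNA whose 5′ triphosphate activates RIG-I, a sensor of viral RNA, and the 5 PBS tumours with the vehicle alone. Because the vehicle held no particles, effects of the RNA and of its lipid carrier cannot be told apart. Injections began at 100 to 150 mm3, were given 3 times at intervals of 48 h in 50 µL, and the tumours, 1 from each of 10 mice, were taken 24 h after the last.

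BCL-2 family proteins decide whether a cell opens its outer mitochondrial membrane and dies by apoptosis. The guardians Bcl-2, Bcl-xL (from Bcl2l1) and Mcl-1 hold the pore-forming effectors Bax and Bak in check. The BH3-only proteins Bid, Bad, Puma (from Bbc3), Noxa (from Pmaip1) and Bim (from Bcl2l11) sense damage or missing survival signals and engage the guardians, and some of them the effectors, through a short helix called BH3. Much of this control acts on the proteins themselves, by cleavage, phosphorylation or rapid degradation, which RNA counts do not show. Noxa transcription is also known to respond to virus infection and to interferon regulatory factors.

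The coding sequence of the BH3 core is shown because this core is a stretch that guardians, effectors and BH3-only proteins share. In the transcripts of 9 of the 10 genes (GENCODE M21, GRCm38), a search of the longest reading frame for leucine, 3 residues of any kind, glycine, alanine or serine, and aspartate matched exactly once per gene. Pmaip1 is not among these 9. No search result is given for it, which does not show that it lacks the core. Each line below gives 30 bases of the transcript, 5′ to 3′, and the capitals mark the codons of the leucine and of the last 2 residues of that core.
Bcl2: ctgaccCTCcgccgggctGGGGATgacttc
Bcl2l1: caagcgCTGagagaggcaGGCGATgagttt
Mcl1: gagaccCTGcggcgcgtgGGCGACggcgtg
Bax: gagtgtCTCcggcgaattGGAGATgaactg
Bak1: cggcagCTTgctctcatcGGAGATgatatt
Bid: agacatCTCgcccaaataGGCGATgagatg
Bad: cgtgagCTCcgaaggatgAGCGATgagttt
Bbc3: gcccagCTGcggcggatgGCGGACgacctc
Bcl2l11: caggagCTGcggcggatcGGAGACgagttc
Between these genes, 12 to 21 of the 30 bases were identical over 36 pairs, with Bbc3 and Bcl2l11 the closest pair. The match is a feature of the letters and says nothing about binding strength.

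After SLR14 no member of the family passed the test, and the measured differences were small. In edgeR's quasi-likelihood test 0 of 10 members had a Benjamini-Hochberg adjusted p of 0.05 or less, against 0.963% of all genes tested, and DESeq2 and limma voom also called 0, against 2.19% and 0.913%. At an unadjusted p of 0.05 or less there was 1 member, Bcl2, against 10.8% of all genes. Fold changes were positive for 5 members and negative for 5, with a median log2 fold change of 0.015, against -0.011 over all genes tested. The groups overlapped for every member. Of all genes, 3.24% had groups that did not overlap, 1.92% with SLR14 higher and 1.32% with SLR14 lower. At these background rates few of any 10 genes would be called or have groups apart. The 95% intervals, which rest on the edgeR fit, ran from 0.725-fold to 1.59-fold over all members. They excluded a change of 2-fold either way for 10 of 10 members and of 1.5-fold either way for 9, Pmaip1 being the exception. A p that misses the threshold does not show that the groups were equal.

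The same test called 2 of 3 genes known to respond to interferon. Irf7, a transcription factor that amplifies type I interferon, had 280, 143, 297, 156 and 142 CPM (counts scaled to a common library total with TMM factors) in SLR14 tumours 1 to 5, against 27.4, 43.1, 33.4, 40.9 and 40.0 CPM in PBS tumours 1 to 5. Every SLR14 tumour was above every PBS tumour (log2 fold change 2.46, edgeR adjusted p = 0.000396). Rigi, which encodes RIG-I itself, averaged 47.7 ± 2.81 CPM in SLR14 and 26.9 ± 6.89 CPM in PBS tumours (SD, n = 5; log2 fold change 0.83, edgeR adjusted p = 0.0241), a call kept in 10 of 18 alternatives and lost without PBS 1, 2 or 3 or SLR14 1, 3, 4 or 5 and with the replicate block (adjusted p up to 0.0753). Isg15, an interferon-induced ubiquitin-like protein, averaged 75.5 ± 18.7 CPM in SLR14 and 43.1 ± 15.05 CPM in PBS tumours and did not pass (SD, n = 5; log2 fold change 0.81, edgeR adjusted p = 0.122), though it passed in 3 of 18 alternatives (adjusted p 0.00394 to 0.306). Without PBS 5, the PBS tumour with the most Isg15, its log2 fold change was 1.04 (edgeR adjusted p = 0.00562).

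**Figure D1:**
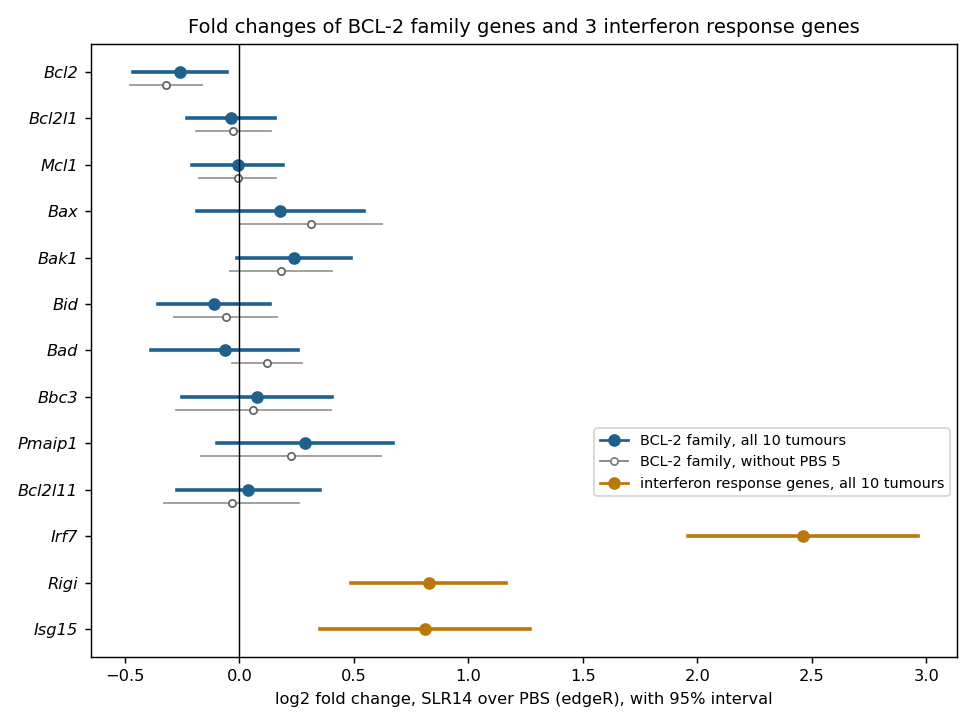
Log2 fold change of SLR14 over PBS tumours (x axis) for the 10 BCL-2 family genes and 3 interferon response genes (y axis), with 95% intervals from edgeR; grey open circles leave out PBS 5. The family genes lie between -0.26 and 0.29 in the fit of all 10 tumours, and Irf7 lies at 2.46.

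Total counts ranged from 17931895 to 39842608 per tumour over both groups. The RENCA label was checked with 7 epithelial markers, which summed to 2674 to 3256 CPM in SLR14 and 2595 to 3180 CPM in PBS tumours. Of the 7 markers, 4 had positive fold changes, with a median log2 fold change of 0.081. Cdh16, also named after its values were seen, averaged 244 ± 40.9 CPM in SLR14 and 351 ± 36.0 CPM in PBS tumours (SD, n = 5). Its groups did not overlap, but it did not pass (log2 fold change -0.52, edgeR adjusted p = 0.0788). Epcam, named after its values were seen, fell (log2 fold change -2.42, edgeR adjusted p = 0.0324), a call kept in 10 of 18 alternatives and lost without PBS 1, 3 or 4, without SLR14 1, 2, 3 or 4, or without PBS 5 and SLR14 2 together. Markers of macrophages and monocytes summed to 1731 to 2147 CPM in SLR14 and 1805 to 2225 CPM in PBS tumours, and those of fibroblasts to 488 to 1541 CPM in SLR14 and 840 to 3381 CPM in PBS tumours. Each tumour is thus a mixture of cell types, and fewer cells of a type and less RNA per cell cannot be told apart. PBS 5 stood apart in several respects. Its erythroid markers summed to 160 CPM, against 40.2 to 55.9 CPM in the other PBS tumours, and its B cell markers to 16.0 CPM, against 28.2 to 33.2 CPM. Its effect is given beside the results it moved most.

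Among the guardians, Bcl2 had the smallest p of the 10 genes. Its protein keeps Bax, Bak and the BH3-only activators in check and is best known from lymphocytes. Bcl2 (ENSMUSG00000057329) had 75.6, 62.1, 73.1, 70.4 and 78.1 CPM in SLR14 tumours 1 to 5, against 87.6, 91.3, 88.9, 90.3 and 71.8 CPM in PBS tumours 1 to 5. All 5 SLR14 tumours lay below 4 of the PBS tumours, and PBS 5 alone lay within the SLR14 range. The means were 71.9 ± 6.17 CPM in SLR14 and 86.0 ± 8.08 CPM in PBS tumours (SD, n = 5), a log2 fold change of -0.26 (SE 0.096, 95% interval -0.46 to -0.052, unadjusted p = 0.0179). Over all genes the edgeR adjusted p was 0.336, so the difference did not pass, and it ranked 846 by p among the 15883 genes.

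Without PBS 5 the groups did not overlap in Bcl2, which had to be so, since PBS 5 alone lay within the SLR14 range. The fit without it is thus no independent test of Bcl2. The remaining 4 PBS tumours averaged 89.5 ± 1.64 CPM (SD, n = 4), and the log2 fold change was -0.32 (95% interval -0.48 to -0.16, unadjusted p = 0.000708). The edgeR adjusted p was 0.0546, which still missed the threshold, and 1.2% of all genes passed it in that fit. Groups that did not overlap with SLR14 lower were found for 2.08% of all genes (4.55% in either direction) once PBS 5 was left out, and Bcl2 was the only member among them. Across all 18 alternatives the fold change of Bcl2 stayed negative, from -0.32 to -0.21, with edgeR, DESeq2 or limma adjusted p from 0.0546 to 0.584. Leaving out SLR14 2, the lowest SLR14 tumour, gave an unadjusted p of 0.061. The B cell markers, 3 of 5 with values, summed to 22.8 to 28.8 CPM in SLR14 and 16.0 to 33.2 CPM in PBS tumours. The T and NK cell markers, 8 of 10 with values, summed to 6.32 to 16.4 CPM in SLR14 and 6.27 to 17.6 CPM in PBS tumours, and none was at 0 in every tumour. Within that list Cd4, at 6.41 ± 2.33 CPM in SLR14 and 9.56 ± 3.74 CPM in PBS tumours (SD, n = 5), made up most of the sum, while Cd3e and Cd8a lay near 1 CPM or below. The log2 fold changes were 2.57 for Cd3e, whose groups did not overlap, 2.15 for Cd8a and -0.58 for Cd4 (edgeR adjusted p = 0.0791, 0.111 and 0.483), and none passed. The part of lymphocytes or red cells in the Bcl2 difference was not tested.

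Bcl2l1 (ENSMUSG00000007659), whose long product Bcl-xL protects epithelial cells, platelets and red cell precursors, differed little. Its level was 180, 169, 183, 184 and 162 CPM in SLR14 tumours 1 to 5, against 174, 163, 202, 174 and 188 CPM in PBS tumours 1 to 5. The PBS range covered 4 of the 5 SLR14 tumours. The log2 fold change was -0.036 (SE 0.089, 95% interval -0.23 to 0.15, edgeR adjusted p = 0.889). Gene counts join the long form with the short form Bcl-xS, which acts against survival, so their balance was not measured.

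Mcl1 (ENSMUSG00000038612) encodes a guardian with a short protein half-life that many leukocytes, neutrophils among them, rely on. It had 389, 450, 396, 419 and 367 CPM in SLR14 tumours 1 to 5, against 415, 424, 363, 415 and 414 CPM in PBS tumours 1 to 5. SLR14 2 was highest of all 10 tumours and PBS 3 lowest, and the groups covered nearly the same range. The means were 404 ± 31.6 CPM in SLR14 and 406 ± 24.4 CPM in PBS tumours (SD, n = 5; log2 fold change -0.0082, SE 0.091, 95% interval -0.21 to 0.19, edgeR adjusted p = 0.978). The sign turned in 5 of 18 alternatives, with values from -0.049 to 0.026. Neutrophil markers, 6 of 7 with values, summed to 17.1 to 50.7 CPM in SLR14 and 11.2 to 16.0 CPM in PBS tumours. Of the 5 tested, S100a8, S100a9 and Mmp8 rose (log2 fold changes 2.11, 2.64 and 2.46, edgeR adjusted p = 0.0127, 0.0295 and 0.0138) and were named after their values were seen. These calls were kept in 16, 10 and 14 of 18 alternatives, and all 3 were lost with limma voom and with the replicate block (adjusted p up to 0.0537 for S100a8, 0.136 for S100a9 and 0.0686 for Mmp8). S100a9 was also lost without any of PBS 1 to 4, SLR14 1 or SLR14 4, and Mmp8 without PBS 3. Mmp8 averaged only 0.444 CPM in PBS tumours and had no test under the filter of 1 CPM in 5 tumours. SLR14 2 had the highest sum. The part of neutrophils in the Mcl1 level was not tested.

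**Figure D2:**
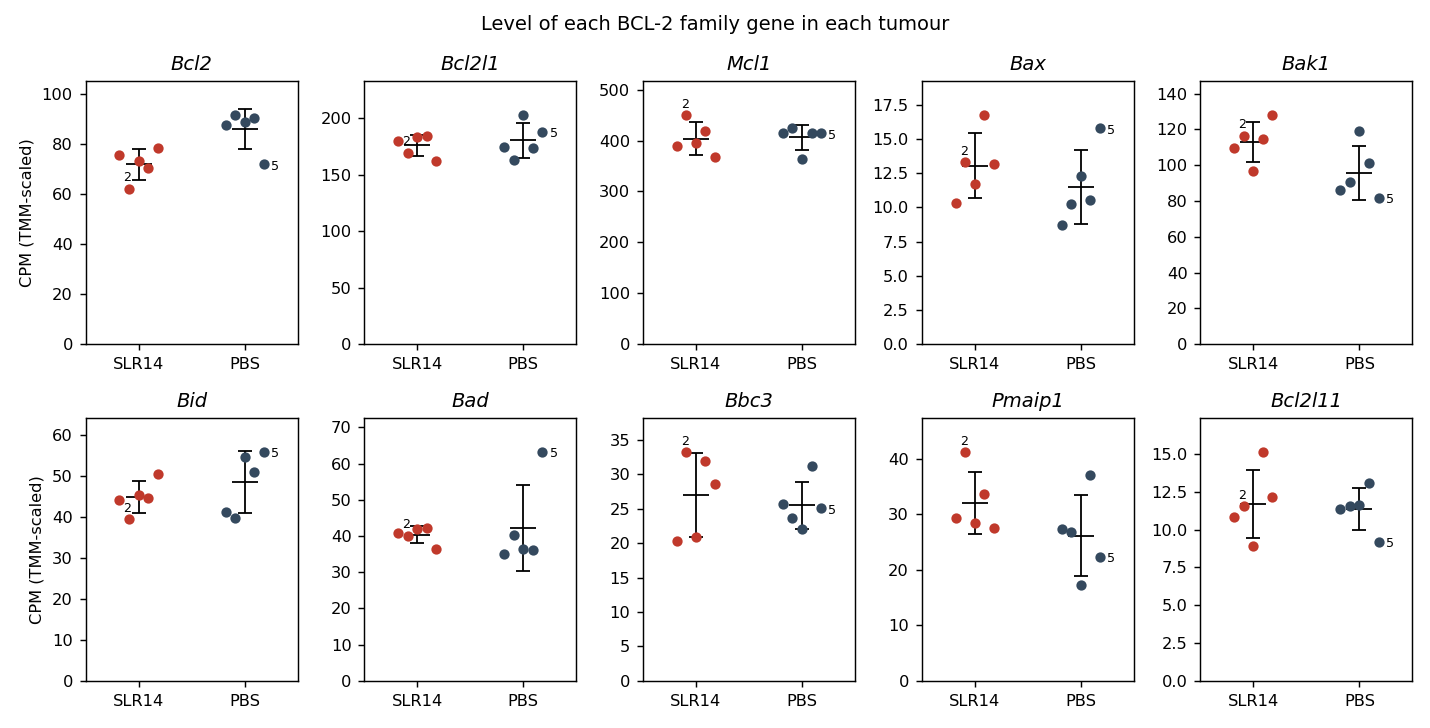
CPM (y axis, linear from 0) of each BCL-2 family gene in the 5 SLR14 tumours (red) and the 5 PBS tumours (dark), with the mean and SD; the labels 2 and 5 mark SLR14 2 and PBS 5. PBS 5 lies within the SLR14 range for Bcl2 and above every other tumour for Bad.

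The effectors Bax and Bak1 had positive fold changes that did not pass. Bak, which sits in the outer mitochondrial membrane in healthy cells, is encoded by Bak1 (ENSMUSG00000057789). Its counts gave 109, 117, 96.5, 114 and 128 CPM in SLR14 tumours 1 to 5, against 85.9, 90.3, 119, 101 and 81.6 CPM in PBS tumours 1 to 5. All 5 SLR14 tumours were above the PBS median, and PBS 3 was above 4 of the SLR14 tumours. The means were 113 ± 11.4 CPM in SLR14 and 95.7 ± 15.1 CPM in PBS tumours (SD, n = 5), a log2 fold change of 0.24 (SE 0.12, 95% interval -0.01 to 0.49, unadjusted p = 0.0588, edgeR adjusted p = 0.482). Without PBS 3 the fold change was 0.33 with an unadjusted p of 0.00877 and an edgeR adjusted p of 0.284.

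Bax (ENSMUSG00000003873), the effector that moves from the cytosol to mitochondria, had 10.3, 13.3, 11.7, 16.7 and 13.2 CPM in SLR14 tumours 1 to 5, against 8.71, 10.2, 12.3, 10.6 and 15.8 CPM in PBS tumours 1 to 5. SLR14 4 and PBS 5 were the 2 highest tumours. The log2 fold change was 0.18 (SE 0.17, 95% interval -0.18 to 0.54, edgeR adjusted p = 0.701). Single tumours moved it either way: it was 0.31 without PBS 5 (unadjusted p = 0.0485, edgeR adjusted p = 0.422), 0.096 without PBS 1 (unadjusted p = 0.58) and 0.08 without SLR14 4 (unadjusted p = 0.639).

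Among the 10 genes, Pmaip1 (ENSMUSG00000024521), a BH3-only gene, had the largest fold change and the widest spread. Noxa, its product, binds chiefly Mcl-1. The values were 29.4, 41.2, 28.4, 33.7 and 27.5 CPM in SLR14 tumours 1 to 5, against 27.4, 26.8, 17.3, 37.0 and 22.3 CPM in PBS tumours 1 to 5. All SLR14 tumours were above 4 of the PBS tumours, and PBS 4 was above 4 of the SLR14 tumours. The means were 32.0 ± 5.65 CPM in SLR14 and 26.2 ± 7.29 CPM in PBS tumours (SD, n = 5; log2 fold change 0.29, SE 0.18, 95% interval -0.097 to 0.67, edgeR adjusted p = 0.584). Leaving out PBS 4 gave 0.45 (unadjusted p = 0.0156, edgeR adjusted p = 0.291), and leaving out PBS 5 and SLR14 2 together gave 0.12 (unadjusted p = 0.501).

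Bbc3 (ENSMUSG00000002083) encodes Puma, a potent BH3-only protein that p53 induces. Its level was 20.3, 33.2, 20.9, 31.9 and 28.5 CPM in SLR14 tumours 1 to 5, against 25.6, 23.6, 22.1, 31.1 and 25.1 CPM in PBS tumours 1 to 5. SLR14 tumours lay on either side of the PBS range, with 2 above it and 2 below it. The log2 fold change was 0.076 (SE 0.15, edgeR adjusted p = 0.857).

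Bcl2l11 (ENSMUSG00000027381) encodes Bim, which binds all the guardians and is induced when growth factors are withdrawn. It had 10.8, 11.5, 8.93, 15.1 and 12.2 CPM in SLR14 tumours 1 to 5, against 11.4, 11.6, 11.6, 13.1 and 9.22 CPM in PBS tumours 1 to 5. The highest and the lowest of the 10 tumours were both SLR14 tumours. The log2 fold change was 0.039 (SE 0.15, edgeR adjusted p = 0.933), and its sign turned in 4 of 18 alternatives.

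Bid (ENSMUSG00000004446) links death receptors to mitochondria, since caspase-8 cleaves its protein into the active form. Bid had 44.1, 39.3, 45.4, 44.5 and 50.4 CPM in SLR14 tumours 1 to 5, against 41.2, 39.7, 54.6, 50.8 and 55.8 CPM in PBS tumours 1 to 5. The PBS tumours fell into 2 low and 3 high values, with 4 of the 5 SLR14 tumours between them. The log2 fold change was -0.11 (SE 0.11, edgeR adjusted p = 0.721).

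Bad (ENSMUSG00000024959), whose protein is kept inactive by survival-kinase phosphorylation, showed how far 1 library can set a value. It had 40.9, 40.1, 42.0, 42.3 and 36.4 CPM in SLR14 tumours 1 to 5, against 35.0, 40.2, 36.5, 36.2 and 63.2 CPM in PBS tumours 1 to 5. PBS 5 was far above the other 9 tumours. With it the log2 fold change was -0.065 (SE 0.15, edgeR adjusted p = 0.880). Without it the PBS mean was 37.0 ± 2.24 CPM (SD, n = 4), and the fold change was 0.12 (95% interval -0.032 to 0.27, unadjusted p = 0.11, edgeR adjusted p = 0.552).

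Some counts may hold reads of a neighbour, since the strand setting of the counting is not given in the sources used here. In GENCODE M21, Bid shares 628 exon bases with Bcl2l13 on the opposite strand, which averaged 81.1 CPM over all tumours. Bad shares 524 with Gpr137 at 18.2 CPM, also on the opposite strand, and Bak1 shares 437 with Ggnbp1 at 0.676 CPM. Bcl2 shares 558 with D630008O14Rik on the opposite strand, and Bax shares 192 with Gm45808 on the same strand, where no strand setting parts the reads. Values of these 2 neighbours were not used here. The counts of these 5 members are uncertain to that extent.

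The balance of one gene to another within a tumour does not depend on library scaling and was described for 6 pairs, with no test because the pairs were chosen with results known. The ratio of Bax to Bcl2, a common index of readiness for apoptosis, was -2.86, -2.22, -2.64, -2.07 and -2.57 on the log2 scale in SLR14 tumours 1 to 5, against -3.32, -3.16, -2.85, -3.09 and -2.18 in PBS tumours 1 to 5. Of the SLR14 tumours, 4 lay above all PBS tumours other than PBS 5, and SLR14 1 lay just below PBS 3. The means were -2.47 ± 0.322 in SLR14 and -2.92 ± 0.446 in PBS tumours (SD, n = 5), a difference of 0.45 that was 0.63 without PBS 5 and 0.35 at the lowest without another tumour. These are ratios of read counts not divided by length.

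The ratio of Pmaip1 to Mcl1, the pair whose proteins bind each other, was -3.72, -3.45, -3.80, -3.64 and -3.74 in SLR14 tumours 1 to 5, against -3.92, -3.98, -4.39, -3.49 and -4.21 in PBS tumours 1 to 5. Every SLR14 tumour was above 4 of the 5 PBS tumours, and PBS 4 lay above 4 of the SLR14 tumours. The difference of the means was 0.33, and leaving out 1 tumour gave 0.23, without PBS 3, to 0.46, without PBS 4. The other 4 pairs differed by less than their spread: Bbc3 to Bcl2l1 by 0.093, Bcl2l11 to Mcl1 by 0.041, Bid to Bcl2l1 by -0.069 and Bad to Bcl2l1 by 0.0051. The spread of Bad to Bcl2l1 was 0.0291 in SLR14 and 0.351 in PBS tumours (SD, n = 5), and PBS 5 and PBS 3 were the ends of the PBS range. Its difference was 0.14 without PBS 5 and -0.08 without PBS 3. The difference of Bcl2l11 to Mcl1 was -0.039 without PBS 5, and that of Bid to Bcl2l1 -0.03.

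**Figure D3:**
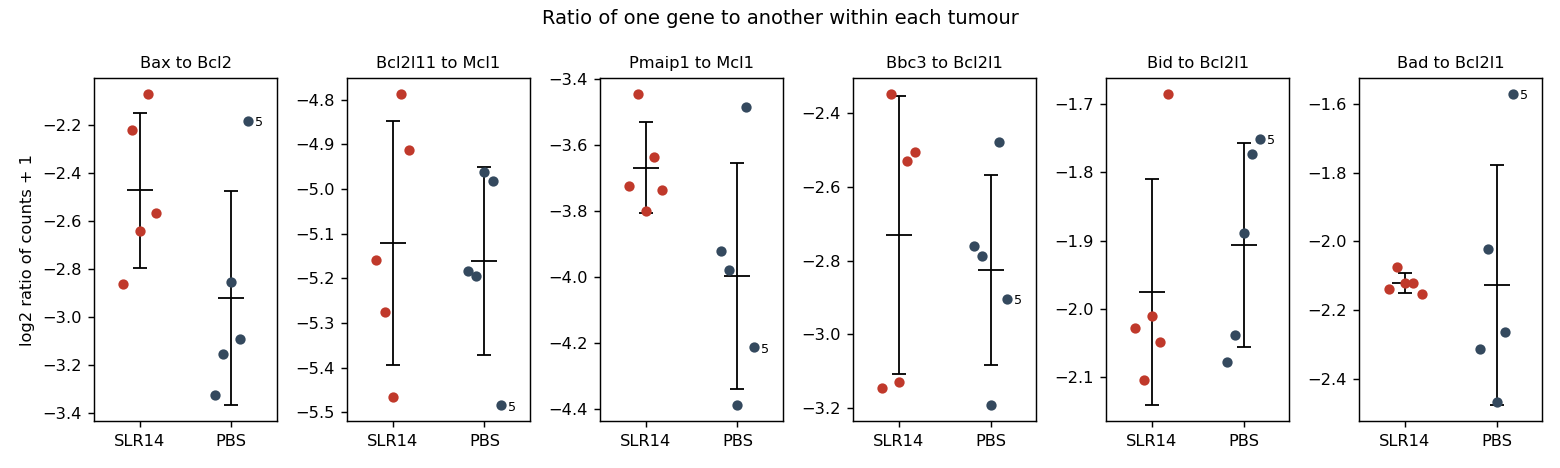
Log2 ratio of counts, with 1 count added, of one gene to another (y axis, scaled separately) in SLR14 (red) and PBS tumours (dark), with the mean and SD; 5 marks PBS 5. Bax to Bcl2 is higher in SLR14 by 0.45 and the groups overlap through PBS 5 and PBS 3.

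Levels of different genes were compared per kb of exon, so that gene length does not set the order. Mcl1 was the highest, with 118 ± 9.24 CPM per kb in SLR14 and 119 ± 7.14 CPM per kb in PBS tumours (SD, n = 5), and no tumour's Bak1 reached the lowest Mcl1 value of 106 CPM per kb. Bak1 came next with 46.9 ± 4.72 CPM per kb in SLR14 and 39.7 ± 6.26 CPM per kb in PBS tumours. Bcl2l1 followed with 38.3 ± 2.08 CPM per kb in SLR14 and 39.3 ± 3.30 CPM per kb in PBS tumours, and its range over the tumours overlapped that of Bak1. Apart from these came Bad, Bid, Bbc3, Pmaip1, Bcl2 and Bax, whose means over all 10 tumours were 16.1, 13.1, 12.4, 10.6, 8.62 and 7.79 CPM per kb, and each overlapped the next. Bcl2l11 was the lowest, with 1.46 ± 0.281 in SLR14 and 1.42 ± 0.172 CPM per kb in PBS tumours, apart from all others. The order rests on the full exon length of the annotation, 9.16 kb for Bcl2 and 8.03 kb for Bcl2l11, and understates genes whose long transcript ends are little used. By this scale the guardians Mcl1 and Bcl2l1 and the effector Bak1 were the most abundant, and the highest Bax value, 10.6 CPM per kb, lay below the lowest Bak1 value, 33.9 CPM per kb.

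**Figure D4:**
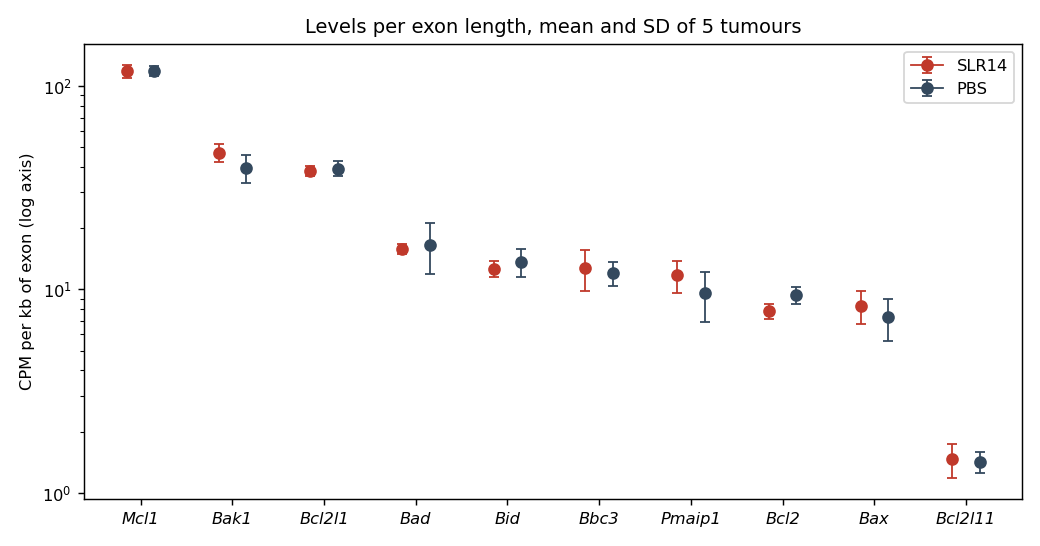
Level of each BCL-2 family gene in CPM per kb of exon (y axis, log scale), ordered by the mean over 10 tumours; points are means and bars SDs of 5 SLR14 (red) or 5 PBS (dark) tumours. Mcl1 is near 118 and Bcl2l11 near 1.4 CPM per kb, with the other 8 genes between them.

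Spread within groups also differed among members. Mcl1, Bcl2l1 and Bcl2 had the lowest pooled coefficients of variation, 6.97%, 7.11% and 9.11%, against a median of 17.4% over all genes tested. Pmaip1, Bad and Bax had the highest, 22.4%, 20.8% and 20.7%. The value of Bad rests on PBS 5: within the SLR14 group its coefficient of variation was 5.80%, and in the PBS group 28.2% with PBS 5 and 6.07% without it. Counting error is larger for genes with fewer reads, which bears on Bax and Bcl2l11 more than on Mcl1. Of the 10 tumours, SLR14 4 was highest of its group in 4 members and lowest in 0, and PBS 4 highest in 3 and lowest in 0. SLR14 5 was highest in 3 and lowest in 4, and PBS 5 highest in 3 and lowest in 3.

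Among the other BCL-2 family genes there was also no call. Of 13 listed, 10 were tested and 0 were called, against 0.963% of all genes tested, so few calls would stand in such a list. Fold changes were positive for 5, against 48.0% of all genes tested. The median log2 fold change was 0.0014, against -0.011 over all genes tested. Bik, a BH3-only gene of epithelial cells, had 10.4, 9.52, 11.8, 17.0 and 17.3 CPM in SLR14 tumours 1 to 5, against 12.7, 13.1, 22.8, 18.7 and 29.8 CPM in PBS tumours 1 to 5. Its fold change was the most negative of the list (log2 -0.55, SE 0.24, unadjusted p = 0.0412, edgeR adjusted p = 0.438), with PBS 5 the highest tumour. Without PBS 5 it was -0.35 (unadjusted p = 0.128), and 0 of 18 alternatives called it (-0.67 to -0.26, adjusted p 0.238 to 0.717).

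Bok, an effector relative, averaged 91.5 ± 1.42 CPM in SLR14 and 87.4 ± 20.1 CPM in PBS tumours (SD, n = 5; log2 fold change 0.066, edgeR adjusted p = 0.858). The 5 SLR14 tumours lay between 89.6 and 93.1 CPM, while the PBS tumours spread from 68.3 to 111 CPM. Bcl2l2, the guardian Bcl-w, had a log2 fold change of 0.13 (edgeR adjusted p = 0.763). Bcl2l13 had -0.025, Bcl2l12 0.0039, Bmf, a BH3-only gene, -0.041, and Bcl2l15, at a mean under 1 CPM, 0.34 (edgeR adjusted p = 0.711). The A1 guardians Bcl2a1a, Bcl2a1b and Bcl2a1d, which leukocytes express, had 0.16, -0.014 and -0.0010 (edgeR adjusted p = 0.800, 0.990 and 0.999). They are near-identical copies, so that reads may have been split among them. The summed neutrophil markers above were higher in the SLR14 group, and SLR14 2 had the highest sum, 50.7 CPM. In SLR14 2, Bcl2a1a, Bcl2a1b and Bcl2a1d were 2.20, 1.25 and 2.32 CPM. Their SLR14 ranges were 1.95 to 3.86, 0.453 to 1.44 and 2.32 to 6.85 CPM. The part of neutrophils in the A1 levels was not tested.

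Downstream of the mitochondria, 0 of 12 apoptosome and caspase genes passed, 0 had an unadjusted p of 0.05 or less, and the median log2 fold change was 0.018. Over all genes tested 0.963% passed and 10.8% had such a p, so few calls would stand in a list of this size at the background rate. The smallest p belonged to Casp9, the caspase that the apoptosome activates (0.16, SE 0.095, edgeR adjusted p = 0.566). Dffb, a nuclease that cuts DNA in dying cells, had -0.31 (edgeR adjusted p = 0.634) and Casp6, an executioner caspase, -0.15 (edgeR adjusted p = 0.662). A further list held regulators of the family together with stress response genes such as Chac1. Among its 23 tested genes, 0 passed and 16 of 23 had fold changes above 0, against 48.0% of all genes tested. The median log2 fold change was 0.058, against -0.011, and the list as a set was not tested. Chac1, a target of the stress factor Atf4, had 0.25 (SE 0.11, edgeR adjusted p = 0.418). Fbxw7, a ubiquitin ligase subunit that marks Mcl-1 for degradation, had 0.26 (edgeR adjusted p = 0.536), and Ywhaz, a 14-3-3 protein of the class that holds phosphorylated Bad, 0.16 (edgeR adjusted p = 0.572).

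The exception lay among the inhibitor of apoptosis (IAP) proteins and their antagonists. Of 10 tested, 1 rose and 0 fell, against 0.674% and 0.29% of all genes, with a median log2 fold change of -0.0032. The gene that rose was Xaf1, an interferon-induced gene whose product is known to bind and oppose XIAP. It averaged 12.9 ± 1.95 CPM in SLR14 and 6.19 ± 1.11 CPM in PBS tumours (SD, n = 5), a log2 fold change of 1.06 (SE 0.16, edgeR adjusted p = 0.00495), and was called in 18 of 18 alternatives.

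**Figure D5:**
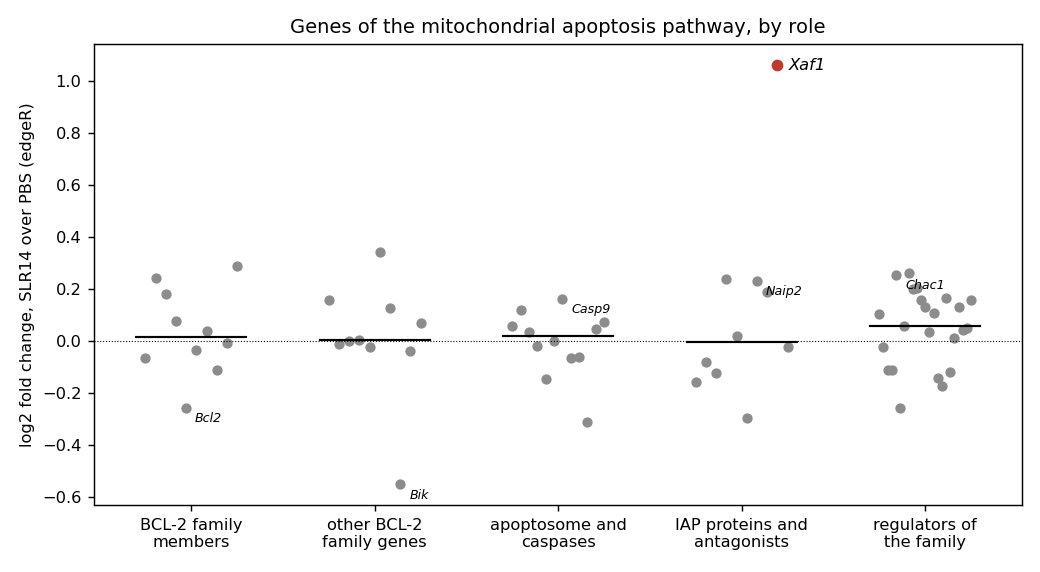
Log2 fold change of SLR14 over PBS tumours (y axis) for each tested gene of 5 lists of the mitochondrial apoptosis pathway (x axis); black lines are list medians, red marks a gene with an edgeR adjusted p of 0.05 or less. Only Xaf1, at 1.06, is red, and the list medians lie between -0.0032 and 0.058.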

How the data were processed

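RNA of 10 RENCA tumours, 5 per group, was sequenced, and the authors deposited whole-number counts per gene for each tumour, not normalized. The submitters' processing notes name the trimmer Trim Galore 0.6.7, the aligner STAR, DESeq2 1.36.0 and the mm39 build. No source used here names the counter or its strand setting. The deposited normalized table was not used.

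The counts were tested with edgeR 4.0.16 (R 4.3.3): TMM scaling, filterByExpr with a minimum count of 10, and the quasi-likelihood test of SLR14 against PBS with Benjamini-Hochberg adjustment over 15883 genes of 18603, called at an adjusted p of 0.05 or less. 95% intervals and SEs come from that fit. DESeq2 1.42.0, limma 3.58.1 voom, other scalings and filters, a replicate block and leaving out each tumour were alternatives. Of the genes in the table, 74 had no symbol and could not be matched by name. CPM uses TMM-scaled totals. Exon lengths and transcripts come from GENCODE M21 on GRCm38, not the submitters' build, so no coordinates are given.

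The gene table was tested on simulated data with known changes. Each tumour is from a separate mouse, and the total counts given in the text limit counting error only. The rule for naming genes was every BCL-2 family gene tested, Irf7, Rigi and Isg15, and of the pathway lists every gene called, or otherwise the 3 with the smallest p. The members and lists were chosen with earlier results of these data known. Proteins were not analysed here.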

Additional observations from a re-analysis of the deposited data

Results flagged for a closer look

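A tumour is given here where it lay far from the other 4 of its own group (Dixon's test at the 95% level). Of 58 groups of values tested, 10 had such a tumour, and chance gives about 1 in 20. Among the BCL-2 family genes, Bcl2 was 71.8 CPM in PBS 5, against 87.6 to 91.3 CPM in the other PBS tumours. Bad was 63.2 CPM in PBS 5, against 35.0 to 40.2 CPM in the other PBS tumours. Mcl1 was 363 CPM in PBS 3, against 414 to 424 CPM in the other PBS tumours. The log2 ratio of Bid to Bcl2l1 was -1.69 in SLR14 5, against -2.10 to -2.01 in the other SLR14 tumours.

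PBS 5 also stood apart in genes outside the family. Isg15 was 69.3 CPM there, against 32.3 to 41.3 CPM in the other PBS tumours. Erythroid markers summed to 160 CPM in PBS 5, against 40.2 to 55.9 CPM in the other PBS tumours, and B cell markers to 16.0 CPM, against 28.2 to 33.2 CPM. Among the SLR14 tumours, SLR14 5 had summed B cell markers of 28.8 CPM, against 22.8 to 24.2 CPM in the others. Its summed fat markers were 6.50 CPM, against 3.02 to 3.69 CPM. Only 2 of 5 fat markers had values, and Fabp4 alone was tested. SLR14 4 had summed erythroid markers of 89.0 CPM, against 15.9 to 36.8 CPM in the others. The part of these cell types in the values of the family was not tested.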

How the results depend on the processing

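No member of the BCL-2 family was called in any of 180 values, 10 members in 18 alternatives each. These fits reuse the same 10 tumours and are not independent. Of all genes tested, 0.963% were called in the main fit and 2.19% with DESeq2, so few calls would stand among 10 genes. The lowest edgeR adjusted p of a member was 0.0546, for Bcl2 without PBS 5. Bcl2 and Bid stayed negative and Bax, Bak1 and Pmaip1 positive in all 18 alternatives, and other scalings moved the median of all genes by under 0.1. The number of genes called, 153, was 407 with DESeq2 and 69 to 194 without 1 tumour, the lower counts being 69 and 78 in the fits that lack PBS 1 or PBS 3, and 77, 75 and 89 in those that lack SLR14 1, SLR14 3 or SLR14 4. With the replicate block it was 78, and 0 members were called. Tumours with the same number were not alike in their deviations from the group means, which correlated at -0.25, 0.138, -0.012, -0.102 and -0.192. No SLR14 tumour was closest to the PBS tumour of its own number. Such correlations cannot show whether the numbers mark a shared batch.

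The sign of small differences turned 14 times. Leaving out 1 tumour gave -0.069 to 0.013 for Bcl2l1, positive only without PBS 3, and -0.047 to 0.026 for Mcl1, positive without PBS 1, 2 or 4 or SLR14 3 or 5 (0.00025, 0.0085, 0.00049, 6.6e-05 and 0.026). It gave -0.12 to 0.12 for Bad, positive only without PBS 5. Bbc3 ran from -0.0067, without SLR14 2, to 0.16, and Bcl2l11 from -0.066, without SLR14 4, to 0.13, with -0.034 without PBS 5. Without PBS 5 and SLR14 2 together Bad was 0.12, Bbc3 -0.024 and Bcl2l11 -0.032, and limma voom gave -0.00060 for Bcl2l11. The causes were not tested. With 5 tumours a group, differences smaller than the intervals given could not be told from 0, and the fewest reads, 194 in a tumour, limit Bax and Bcl2l11 most.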
